A study of Drosophila melanogaster with 16 samples.

Results

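The transcripts described here are those whose array intensity set the hearts of 2 excision lines of *Drosophila melanogaster*, *KCNQ* mutants and their precise-excision control, apart from the hearts of *sei* mutants and Canton-S flies. They were chosen by these intensities: a probeset, the set of short probes that measures 1 transcript, was taken when the 6 excision-line arrays did not overlap the 10 other arrays in log2 intensity and the gap between the nearest arrays was at least 0.5. Of 18769 probesets 85 met this rule, 45 with higher and 40 with lower values in the excision lines (0.24% and 0.213% of those tested). Because the rule used these values, the difference between the lines is given as a description with no test.

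Heart tubes of 3-week-old flies kept at 25°C were pooled, 30 per array, and their RNA was hybridised to 16 Affymetrix GeneChips. The first group was *KCNQ* mutants (n = 3), carrying an allele made by imprecise excision of a P element, which puts a stop codon before the part of the channel that spans the membrane. The allele is KCNQ370 in the methods of the study and KCNQ37 in the sample labels. Their control, WtPE (n = 3), was a line of *w1118* origin in which the P element had left the *KCNQ* locus precisely (labelled KCNQ97). Array names in the study's supplementary data call the same WtPE arrays W1118, and which of the names holds was not settled here. The *sei* mutants (n = 5) carried seits1, induced by ethylmethane sulfonate, again with a stop codon ahead of the membrane-spanning region, and their control was Canton-S, WtCS (n = 5). *KCNQ* and WtPE hearts are called the excision lines below, by the sample labels, and *sei* and WtCS hearts the Canton-S lines. No group had any treatment. Each group is 1 line, so that transcripts shared by 2 lines can be described but no effect of a single locus can be read from them, and the sex of the flies on each array is not given in the sources used here.

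Laboratory stocks of *Drosophila* carry different alleles at many genes, and differences in promoters, transposon insertions, gene copies or probe-binding sequence can all give a transcript a different array intensity in one stock than in another. P-element excision lines are commonly recovered in a *w1118* stock, and a precise and an imprecise excision of the same element share most of that stock's genome. *sei* and *KCNQ* encode potassium channels that help to end the cardiac action potential, and both lie on the second chromosome. In pooled heart preparations, which hold pericardial cells, blood cells and other tissue beside heart muscle, fewer cells of a type and less RNA per cell cannot be told apart.

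Over all probesets, correlations of log2 intensity were 0.974 to 0.982 between *KCNQ* and WtPE arrays, against 0.924 to 0.967 between *sei* and WtCS arrays, and arrays of the excision lines correlated with those of the Canton-S lines at 0.937 to 0.970. Since all excision-line arrays came from 1 array run and the others from 3 (below), the same was computed within that run, where *sei* and WtCS arrays correlated at 0.947 to 0.950 and excision-line with Canton-S-line arrays at 0.942 to 0.959. The median intensity of an array was between 10.2 and 12.3. Heart genes were bright in every group, with *Hand*, a cardiac transcription factor, at mean log2 intensities of 12.28 in *KCNQ*, 12.24 in WtPE, 11.96 in *sei* and 12.18 in WtCS hearts. The summed intensity of 3 tracheal markers was 27.3 to 33.9 in *KCNQ* and 26.5 to 39.3 in WtPE arrays, against 36.2 to 67.6 in *sei* and 52.2 to 130 in WtCS arrays, and that of 5 hemocyte markers was 2774 to 3436 and 3639 to 4111, against 2431 to 2825 and 3883 to 6850. Of the tracheal markers *serp* had an excision-line less Canton-S-line mean of -1.26, *verm* of -0.39 and *btl* of 0.17. Group means of *verm* and *btl* were all below the median log2 of all values, 3.44. The hemocyte markers did not go together. *Hml*, *eater*, *Pxn* and *Sr-CI* had their highest mean in WtCS hearts. *NimC1* was lowest there, at 6.95, against 10.20 in *KCNQ*, 10.43 in WtPE and 10.24 in *sei* hearts. None of the 38 marker genes of heart, pericardial cells, fat body, hemocytes, trachea, neurons, gut, yolk, ovary and testis met the rule. At the 0.634% of all genes with 1 symbol that met it, less than 1 of them would. Markers still differed between the lines. Excision-line less Canton-S-line means of the pericardial ones were 2.19 for *Klf15*, 0.95 for *sns*, 0.27 for *Amnionless*, 0.05 for *prc* and -0.83 for *Cubn*. The part of marker tissues in the differences was not tested. Array names place all excision-line arrays in 1 of 3 runs, run A, with replicates 4 and 5 of *sei* and of WtCS. Each value below can therefore be set against 4 Canton-S-line arrays of the same run. Sample codes in the array names repeat between *sei* replicates 2 and 5, *sei* replicates 3 and 4 and WtCS replicates 2 and 3, so that p-values measure the spread between arrays, which may be technical in part.

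Of the 85 probesets 77 have 1 gene symbol, for 76 genes that are all protein-coding in the RefSeq table, and 8 have several symbols or none and are counted but not named. The line difference (mean log2 of 6 excision-line arrays less mean of 10 Canton-S-line arrays) ran between 1.00 and 6.50 for the 45 higher probesets (median 2.26) and between -5.51 and -1.06 for the 40 lower ones (median -2.07). It stands in parentheses after the values of a member below. Where the dimmer lines lay near or below the median log2 of all values, 3.44, the size of the difference is not firm, and no fold is given. It was over 2 in size for 51 of the 85. Over all 18769 probesets the median difference was -0.03, and 6.33% differed by over 1 and 0.890% by over 2 in size. For 8 of the 45 higher probesets every Canton-S-line array was under log2 5, and for 10 of the 40 lower ones every excision-line array was.

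**Figure D1:**
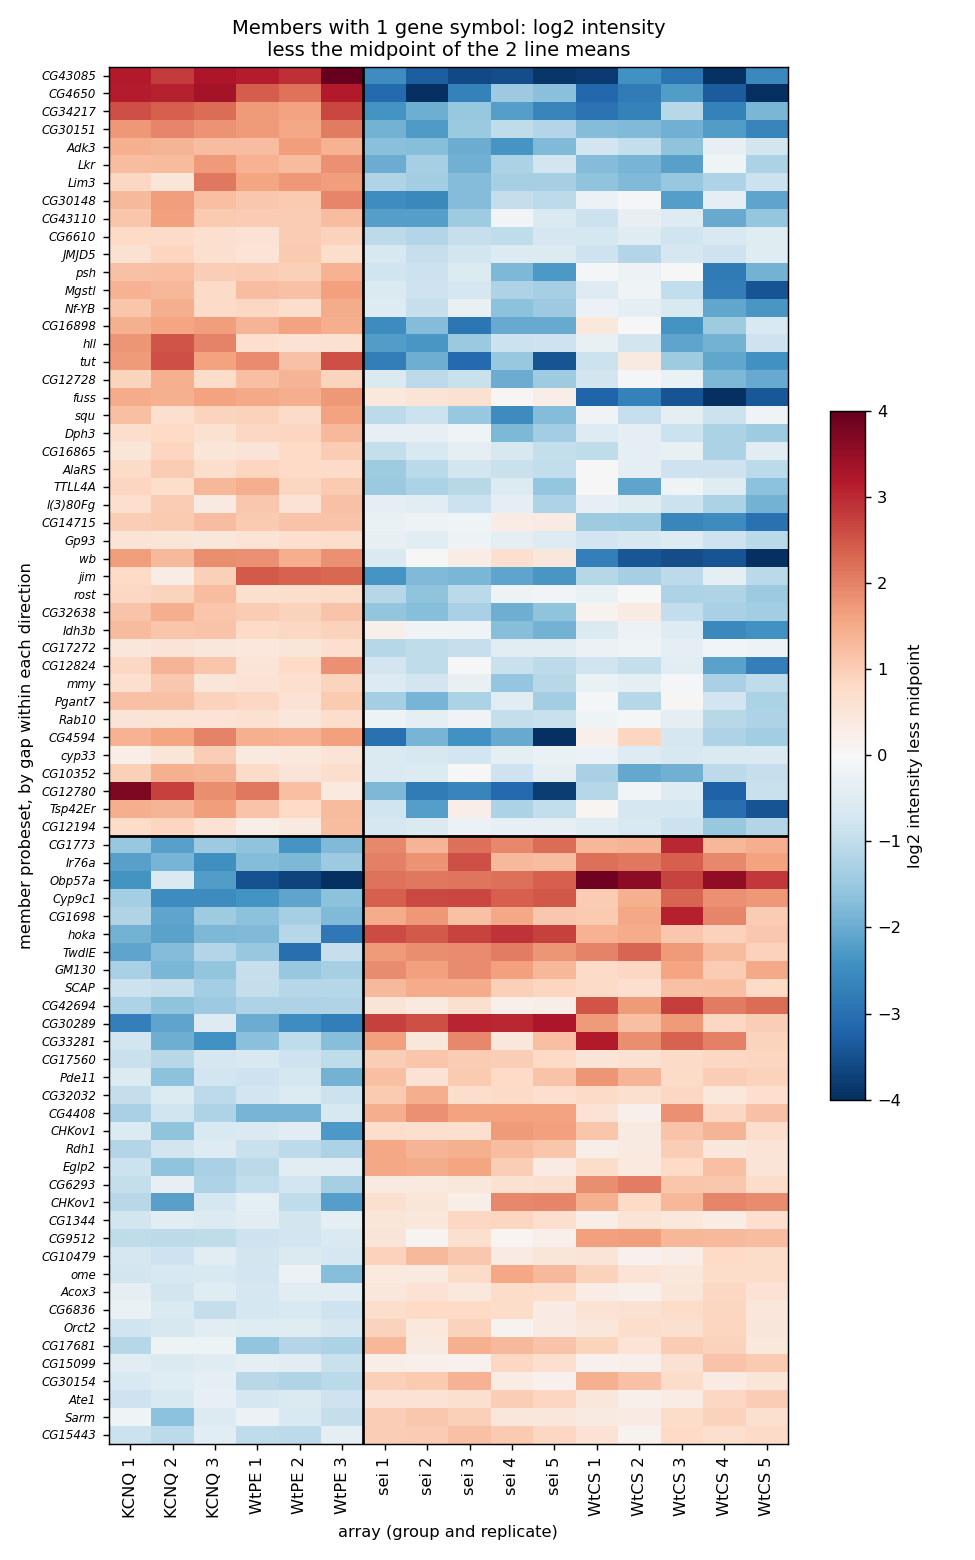
Log2 intensity of each of the 77 member probesets with 1 gene symbol (rows, higher ones above the line and lower ones below it, by size of gap) on each of the 16 arrays (columns, by group and replicate), less the midpoint of the 2 line means. Red is above and blue below the midpoint, with colours ending at 4 and -4. The 6 excision-line columns have 1 colour within each row. In *fuss* the *sei* columns are on the red side, and in *wb* they lie near the midpoint, replicate 1 below it and the others above. WtCS columns are blue in both, with *sei* means of 9.24 and 7.37 against WtCS means of 5.43 and 3.72.

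The largest gap belonged to *CG43085*, a gene of arm 3L. It had log2 intensities of 9.07, 8.70 and 9.12 in *KCNQ* hearts and 9.03, 8.81 and 10.17 in WtPE hearts, against 3.42, 2.62, 2.30, 2.35 and 2.01 in *sei* hearts and 2.06, 3.48, 2.99, 1.93 and 3.34 in WtCS hearts. All 6 excision-line arrays were bright and all 10 Canton-S-line arrays near the bottom of the scale, and the groups were 5.22 apart at their nearest arrays. The line difference was 6.50, with *KCNQ* close to WtPE and *sei* close to WtCS. *CG34217*, of arm 2R, showed the same on a smaller scale. Its log2 intensities were 7.67, 7.50 and 7.34 in *KCNQ* hearts and 6.82, 6.71 and 7.78 in WtPE hearts, against 2.70, 3.15, 3.60, 2.91 and 2.46 in *sei* hearts and 2.14, 2.40, 3.99, 2.41 and 3.26 in WtCS hearts. The line difference was 4.40, and the highest Canton-S-line array, WtCS replicate 3, stayed 2.72 below the lowest excision-line array.

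Serine proteases and their homologues, secreted enzymes that include activators of immune and clotting cascades and inactive relatives that lack the catalytic residue, were found in both directions. By symbol or RefSeq synonym 243 measured genes belong to this family, of which 3 were higher and 3 lower in the excision lines (2.47%, against 0.634% of all genes with 1 symbol). The family was counted after its members had been seen. Among the higher ones *CG4650*, a serine protease homologue (SPH197), had log2 intensities of 9.07, 8.99 and 9.25 in *KCNQ* hearts and 8.34, 8.08 and 9.10 in WtPE hearts, against 2.83, 1.83, 3.22, 4.46 and 4.27 in *sei* hearts and 2.78, 3.12, 3.69, 2.58 and 1.66 in WtCS hearts. The arrays fell into separate ranges with a line difference of 5.76, and WtPE replicates 1 and 2 were the lowest of the excision lines. *CG43110* (SP248) ranged from 7.56 to 8.20 in the excision lines, against 4.33 to 6.43 in the Canton-S lines, with a difference of 2.37. *psh* encodes Persephone, the protease that starts Toll signalling when it is cut by the proteases of microbes. It had log2 intensities of 8.47, 8.50 and 8.28 in *KCNQ* hearts and 8.30, 8.25 and 8.68 in WtPE hearts, against 6.47, 6.44, 6.75, 5.50 and 4.97 in *sei* hearts and 7.20, 7.09, 7.28, 4.46 and 5.40 in WtCS hearts. The highest array of the Canton-S lines was WtCS replicate 3, and those of run A (replicates 4 and 5) were the lowest of them, so that the line difference of 2.26 was 3.33 within run A.

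Of the 3 lower ones *CG1773* (SP74) had the largest gap of any named lower probeset. Its log2 intensities were 3.15, 2.47 and 3.20 in *KCNQ* hearts and 3.04, 2.29 and 2.89 in WtPE hearts, against 6.57, 6.03, 6.85, 6.58 and 6.90 in *sei* hearts and 5.97, 6.03, 7.67, 5.99 and 6.12 in WtCS hearts. The excision-line arrays were at the bottom of the scale and the Canton-S-line arrays were at 6.90 or less except for WtCS replicate 3 at 7.67, with a line difference of -3.63. *CG30289* (SP226) had log2 intensities of 1.98, 2.62 and 4.21 in *KCNQ* hearts and 2.74, 2.22 and 1.95 in WtPE hearts, against 7.46, 7.28, 7.75, 7.73 and 7.97 in *sei* hearts and 6.41, 5.92, 6.41, 5.54 and 5.70 in WtCS hearts. It was thus brightest in *sei*, intermediate in WtCS and dim in both excision lines, where *KCNQ* replicate 3 at 4.21 was the highest, and the line difference was -4.20. *CG42694* (SPH247) had log2 intensities of 3.42, 3.05 and 3.22 in *KCNQ* hearts and 3.42, 3.43 and 3.47 in WtPE hearts, against 5.18, 5.07, 5.32, 4.86 and 4.92 in *sei* hearts and 7.17, 6.38, 7.42, 6.75 and 6.88 in WtCS hearts. Here the order of the Canton-S lines was the other one, with WtCS above *sei* and both above the excision lines, and the line difference was -2.66. In a narrower list of 67 trypsin-like proteases and serpins, written from gene symbols alone, *psh* was the 1 member.

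**Figure D2:**
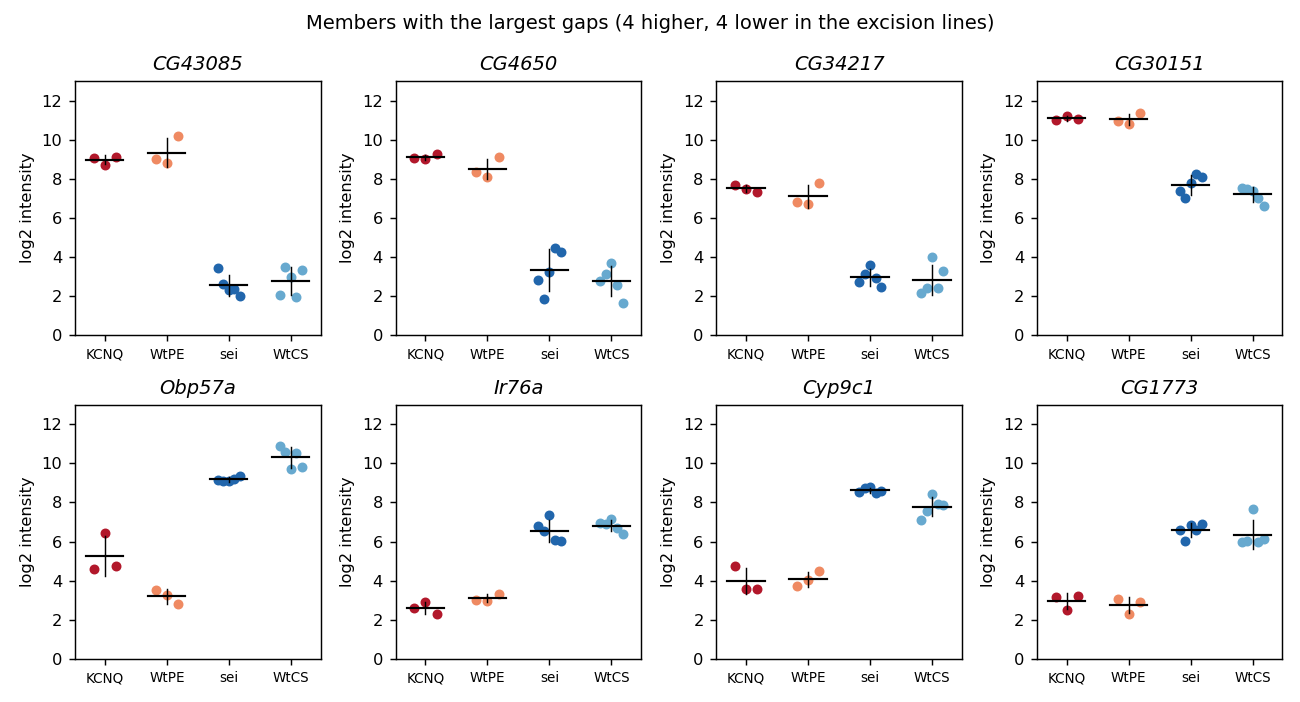
Log2 intensity (vertical axis, shared by all panels) of 8 members with large gaps in each array of *KCNQ*, WtPE, *sei* and WtCS hearts. Points are arrays, horizontal lines group means and vertical lines ± 1 SD (n = 3, 3, 5 and 5). In *CG43085*, *CG4650*, *CG34217* and *CG30151* the excision lines lie above the Canton-S lines, and in *Obp57a*, *Ir76a*, *Cyp9c1* and *CG1773* below them.

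Of 255 measured genes of odorant-binding proteins and receptors 2 were members (0.784%, near the 0.634% of all genes with 1 symbol), both lower in the excision lines. *Obp57a* encodes an odorant-binding protein, a small carrier of hydrophobic molecules, a family best known from organs of smell and taste. Its log2 intensities were 4.61, 6.42 and 4.76 in *KCNQ* hearts and 3.51, 3.28 and 2.79 in WtPE hearts, against 9.15, 9.08, 9.12, 9.17 and 9.38 in *sei* hearts and 10.88, 10.58, 9.70, 10.53 and 9.82 in WtCS hearts. The Canton-S lines were bright on every array, while the excision lines were far lower and unlike each other, with *KCNQ* replicate 2 at 6.42 and WtPE replicate 3 at 2.79. The line difference of -5.51 was the most negative of the 85. *Ir76a*, an ionotropic receptor that serves amine smell in the antenna, had log2 intensities of 2.59, 2.90 and 2.31 in *KCNQ* hearts and 3.03, 2.98 and 3.32 in WtPE hearts, against 6.77, 6.56, 7.35, 6.06 and 6.01 in *sei* hearts and 6.96, 6.88, 7.15, 6.70 and 6.38 in WtCS hearts. The highest excision-line array, WtPE replicate 3, was far below the lowest Canton-S-line array, *sei* replicate 5, with a line difference of -3.83.

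The remaining members are ordered by their known roles. These groups were formed after the members were known and have no list of measured genes behind them, so that their counts describe only the members. Of 8 enzymes of metabolism 5 were higher and 3 lower. *Cyp9c1*, 1 member of 83 measured cytochrome P450 genes (enzymes that oxidise foreign and internal compounds), had log2 intensities of 4.76, 3.59 and 3.58 in *KCNQ* hearts and 3.71, 4.01 and 4.48 in WtPE hearts, against 8.52, 8.74, 8.78, 8.49 and 8.58 in *sei* hearts and 7.12, 7.55, 8.45, 7.94 and 7.85 in WtCS hearts. It was dim in both excision lines and bright in both Canton-S lines, *sei* being the brighter of these, and differed by -4.18. *Mgstl*, for a microsomal glutathione S-transferase, ran the other way and ranged from 7.88 to 8.76 in the excision lines, against 3.67 to 6.94 in the Canton-S lines (2.50). The 34 glutathione S-transferases of the symbol list held no member, and neither did 35 UDP-glycosyltransferases. At the 0.634% of all genes with 1 symbol less than 1 member would be in each list. *Rdh1*, for a retinol dehydrogenase, ranged from 7.27 to 8.02 in the excision lines, against 8.77 to 10.07 in the Canton-S lines (-1.86), and *Acox3*, for an acyl-CoA oxidase of peroxisomes, from 7.05 to 7.40 in the excision lines, against 8.00 to 8.63 in the Canton-S lines (-1.06). *CG4594*, of the enoyl-CoA isomerase family of fatty acid breakdown, ranged from 8.65 to 9.26 in the excision lines, against 3.10 to 8.12 in the Canton-S lines (3.13), with *sei* as its lowest group. *Idh3b*, for a subunit of the NAD-dependent isocitrate dehydrogenase of the tricarboxylic acid cycle, ranged from 8.79 to 9.29 in the excision lines, against 5.45 to 8.23 in the Canton-S lines (2.01). Its Canton-S-line arrays of run A were the dimmest, at 6.32 and 6.13 in *sei* and 5.45 and 5.60 in WtCS hearts, against 7.43 to 8.23 in the other runs. *hll*, for an acyl-CoA synthetase of very long chains, ranged from 5.25 to 7.17 in the excision lines, against 2.33 to 4.37 in the Canton-S lines (2.72), and *mmy*, whose enzyme makes UDP-N-acetylglucosamine for chitin and glycans, from 8.76 to 9.34 in the excision lines, against 6.74 to 8.21 in the Canton-S lines (1.45).

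Of 6 members of the secretory pathway 4 were higher and 2 lower. *GM130*, a scaffold of the Golgi's receiving face, had log2 intensities of 4.55, 4.05 and 4.27 in *KCNQ* hearts and 4.93, 4.36 and 4.55 in WtPE hearts, against 7.74, 7.52, 7.74, 7.51 and 7.19 in *sei* hearts and 6.62, 6.70, 7.43, 6.89 and 7.38 in WtCS hearts. The excision lines all lay below the Canton-S lines, of which *sei* was the higher (-2.82, 7.06-fold). *SCAP*, which escorts SREBP to the Golgi, had log2 intensities of 6.44, 6.40 and 5.95 in *KCNQ* hearts and 6.36, 6.17 and 6.17 in WtPE hearts, against 8.61, 8.81, 8.80, 8.27 and 8.17 in *sei* hearts and 8.09, 8.00, 8.48, 8.52 and 8.11 in WtCS hearts. Here the spread within each line was small, and the nearest arrays were 1.56 apart with a difference of -2.14. *Gp93*, the endoplasmic reticulum chaperone of the Hsp90 family, ranged from 10.75 to 11.00 in the excision lines, against 9.22 to 10.10 in the Canton-S lines (1.13), *Rab10*, a small GTPase of membrane traffic, from 11.25 to 11.49 in the excision lines, against 9.56 to 10.72 in the Canton-S lines (1.12), and *Pgant7*, which starts mucin-type sugar chains, from 7.53 to 8.12 in the excision lines, against 5.10 to 7.00 in the Canton-S lines (1.90). *CG14715* (FKBP13), a prolyl isomerase of the FK506-binding family, was very bright and ranged from 11.96 to 12.22 in the excision lines, against 7.99 to 11.30 in the Canton-S lines (2.20).

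Among proteins of matrix, cuticle and membrane contacts 2 were higher and 2 lower. *wb* encodes Wing blister, a laminin alpha chain of basement membranes, and ranged from 8.50 to 9.07 in the excision lines, against 2.96 to 7.85 in the Canton-S lines (3.32). A list of 18 other basement membrane and matrix genes held no member, where less than 1 would be at the 0.634% of all genes with 1 symbol. *hoka*, for a membrane protein of smooth septate junctions in the gut, had log2 intensities of 5.96, 5.73 and 6.08 in *KCNQ* hearts and 6.11, 6.73 and 5.00 in WtPE hearts, against 10.49, 10.31, 10.56, 10.74 and 10.58 in *sei* hearts and 9.26, 9.34, 8.94, 8.78 and 8.94 in WtCS hearts. The Canton-S-line arrays were all well above the excision-line arrays, and highest in *sei* (-3.86, 14.5-fold). *TwdlE*, 1 member of 123 measured cuticle protein genes, had log2 intensities of 4.88, 5.24 and 5.82 in *KCNQ* hearts and 5.46, 3.97 and 6.07 in WtPE hearts, against 8.70, 8.85, 8.88, 9.04 and 8.74 in *sei* hearts and 8.96, 9.31, 8.69, 8.24 and 7.91 in WtCS hearts. WtPE replicates 2 and 3 spanned the range of the excision lines, and WtCS replicate 5 at 7.91 was the nearest Canton-S-line array (-3.49). *Tsp42Er*, a tetraspanin, lay close to the threshold at 6.73 to 7.60 in the excision lines, against 2.47 to 6.21 in the Canton-S lines.

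The members with known roles in transcription or chromatin were *Lim3*, *fuss*, *jim*, *Nf-YB* and *JMJD5*, all on the higher side. *Lim3*, a LIM-homeodomain factor of motor neurons, had log2 intensities of 3.68, 3.32 and 4.95 in *KCNQ* hearts and 4.43, 4.58 and 4.51 in WtPE hearts, against 1.63, 1.44, 1.10, 1.51 and 1.53 in *sei* hearts and 1.24, 1.07, 1.32, 1.62 and 1.97 in WtCS hearts. The Canton-S lines stayed below the median of all values, 3.44, on every array, and the excision lines were above it except for *KCNQ* replicate 2 at 3.32, with a line difference of 2.80. 4 neuronal markers had a summed intensity of 86.8 to 112 in *KCNQ* and 94.8 to 132 in WtPE arrays, against 81.3 to 124 in *sei* and 110 to 164 in WtCS arrays. They went both ways, with line differences of 0.86 for *ChAT*, 0.09 for *brp*, -0.30 for *elav* and -0.35 for *nSyb*. *fuss*, a relative of the Ski and Sno repressors of TGF-beta signalling and the 1 member on chromosome 4, ranged from 10.29 to 10.59 in the excision lines, against 4.45 to 9.48 in the Canton-S lines (3.07). *jim*, a zinc finger protein, ranged from 8.14 to 10.29 in the excision lines, against 5.48 to 7.49 in the Canton-S lines (3.06), *Nf-YB*, a subunit of the factor that binds CCAAT boxes, from 7.54 to 8.32 in the excision lines, against 4.51 to 6.61 in the Canton-S lines (2.10), and *JMJD5*, a Jumonji-domain oxygenase, from 7.71 to 8.20 in the excision lines, against 5.99 to 6.69 in the Canton-S lines (1.47).

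Of 6 receptors, signalling proteins and transporters, 1 was higher and 5 lower. The higher one was *Lkr*, the receptor of the neuropeptide leucokinin, which controls fluid secretion by the renal tubules. Its log2 intensities were 4.42, 4.45 and 4.89 in *KCNQ* hearts and 4.59, 4.46 and 5.02 in WtPE hearts, against 1.21, 1.86, 1.28, 1.92 and 2.44 in *sei* hearts and 1.46, 1.34, 1.03, 3.01 and 1.93 in WtCS hearts. Every Canton-S-line array was below the median of all values and every excision-line array above it (2.89), and WtCS replicate 4, of run A, was the nearest at 3.01. *CG1698* (NAT5, of the sodium-coupled amino acid transporter family) had log2 intensities of 2.74, 1.85 and 2.53 in *KCNQ* hearts and 2.31, 2.61 and 2.18 in WtPE hearts, against 5.44, 5.69, 5.13, 5.49 and 5.03 in *sei* hearts and 5.00, 5.51, 7.05, 5.91 and 4.97 in WtCS hearts. The excision lines were near the bottom of the scale and the Canton-S lines clearly above, WtCS replicate 3 being the highest (-3.15). *Pde11*, for a cyclic nucleotide phosphodiesterase, ranged from 4.84 to 6.18 in the excision lines, against 7.29 to 8.49 in the Canton-S lines (-2.12), *Eglp2*, of the glycerol-permeable aquaporins of insects, from 4.35 to 5.55 in the excision lines, against 6.27 to 7.53 in the Canton-S lines (-1.91), and *Orct2*, an organic cation transporter, from 6.35 to 6.73 in the excision lines, against 7.30 to 8.08 in the Canton-S lines (-1.18). *Sarm*, whose TIR domain cleaves NAD in dying axons, was close to the threshold at 7.08 to 8.54 in the excision lines, against 9.06 to 9.81 in the Canton-S lines. No member was found among 21 potassium channel genes, 25 calcium and sodium channel or pump genes, 16 heart transcription factors or 25 muscle genes (0.634% of all genes with 1 symbol were members, so that less than 1 member would be at the same share).

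The 2 germline genes were higher in the excision lines. *tut*, for an RNA-binding partner of Bam in the male germline, ranged from 6.74 to 8.15 in the excision lines, against 2.13 to 5.92 in the Canton-S lines (3.84), and *squ*, of the piRNA pathway, from 8.08 to 9.03 in the excision lines, against 4.90 to 7.28 in the Canton-S lines (2.02). The summed intensity of 4 ovary markers was 188 to 492 in *KCNQ* and 386 to 905 in WtPE arrays, against 47.7 to 547 in *sei* and 353 to 1925 in WtCS arrays. That of 4 testis and accessory gland markers was 226 to 713 and 251 to 411, against 268 to 1471 and 35.2 to 400. The ranges of both marker sums overlapped between the excision and the Canton-S lines. Of 4 genes of translation and protein modification, *AlaRS* (alanyl-tRNA synthetase), *Dph3* (diphthamide synthesis) and *TTLL4A* (of the tubulin tyrosine ligase-like family) were higher, with differences of 1.65, 1.69 and 2.07, and *Ate1*, for the arginyltransferase of the N-degron pathway, was lower, with -1.28.

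*CHKov1* was the only gene with 2 member probesets, both lower. In this gene a transposon insertion that truncates the protein is common in natural populations and is tied to resistance to sigma virus and to organophosphates. The brighter probeset ranged from 7.70 to 9.52 in the excision lines, against 10.20 to 11.88 in the Canton-S lines, and the dimmer one from 3.90 to 5.77 against 6.55 to 7.90. Their line differences were -2.54 and -2.01. On both probesets *KCNQ* replicate 2 and WtPE replicate 3 were the lowest arrays. *CG12780*, a relative of the beta-glucan recognition proteins of immunity (GNBP-like), had a wide spread at a small gap. It had log2 intensities of 9.67, 8.67 and 7.79 in *KCNQ* hearts and 8.05, 7.14 and 6.35 in WtPE hearts, against 4.16, 3.16, 3.32, 2.85 and 2.14 in *sei* hearts and 4.80, 5.83, 5.41, 2.70 and 5.07 in WtCS hearts. The excision lines lay above every Canton-S-line array although their own arrays ran between 6.35 and 9.67 (4.00). The 52 immune peptide and recognition genes of the symbol list held no member, where less than 1 would be at the 0.634% of all genes with 1 symbol.

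Members with no role given here include some with clear patterns. *CG30151* ranged from 10.81 to 11.35 in the excision lines, against 6.63 to 8.24 in the Canton-S lines (3.62), *Adk3* from 7.53 to 7.99 in the excision lines, against 3.94 to 5.98 in the Canton-S lines (2.77), *CG30148* from 8.20 to 9.13 in the excision lines, against 4.59 to 7.08 in the Canton-S lines (2.75) and *CG6610* from 8.77 to 9.19 in the excision lines, against 7.02 to 7.71 in the Canton-S lines (1.58). Among the lower ones *CG33281* ranged from 1.67 to 3.32 in the excision lines, against 4.54 to 7.28 in the Canton-S lines (-3.19). The 13 genes not described otherwise are *CG12728*, *CG16865*, *rost*, *CG12824* and *cyp33*, higher by 1.04 to 2.16, and *CG17560*, *CG32032*, *CG4408*, *CG1344*, *CG10479*, *CG6836*, *CG17681* and *CG15099*, with line differences of -2.55 to -1.07. Of the 8 probesets without a single symbol 2 were higher (6.15 and 3.07) and 6 lower (-4.95 to -1.40). The members nearest to the threshold were *CG12194* and *Tsp42Er*, with gaps of 0.51 and 0.51, and *CG15443* and *Sarm*, with 0.50 and 0.52. Just outside it *CG31751* and *Ent1* had gaps of 0.50 (0.499 before rounding) and 0.49 on the higher side, and *cmb* and *Prosbeta5* 0.50 (0.498) and 0.48 on the lower side. *Prosbeta5*, a catalytic subunit of the proteasome, had a line difference of -0.77.

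The 76 genes lay on every major arm. Of 33 lower genes 14 were on 2R (42.4%), where 20.4% of the 11892 measured and placed genes lie, while the 43 higher genes had 10 there (23.3%). On 2L, with 18.5% of the placed genes, there were 13 higher (30.2%) and 6 lower genes (18.2%). On 3L, with 19.7%, there were 7 (16.3%) and 7 (21.2%). On 3R, with 25.0%, there were 5 (11.6%) and 5 (15.2%), and on X, with 15.8%, 7 (16.3%) and 1 (3.03%). *sei* is placed on 2R, and *KCNQ* is not among the placed genes, since no probeset with it as a single symbol was found. Of 152 measured genes directly next to a member gene 2 were members (1.32%, against 0.639% of all placed genes), and these were *CG30151* and *CG30154*, next to each other. The 150 other neighbours had a median size of line difference of 0.36, against 0.29 over all placed genes, and 10.7% of them differed by over 1 in size, against 8.03%.

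These neighbours belong to a stretch of 9 measured genes of 2R from *Obp57a* to *CG30148* that held 4 members of opposite directions. In gene order *Obp57a* was lower, *CG30151* higher, *CG30154* lower and *CG30148* higher, with line differences of -5.51, 3.62, -1.60 and 2.75. *CG30154* ranged from 5.99 to 6.83 in the excision lines, against 7.37 to 8.62 in the Canton-S lines, and *KCNQ* was above WtPE there (means of 6.71 and 6.06). *Obp57c*, 2 places before *Obp57a*, had a line difference of -2.06 and a gap of 0.39, just short of the rule: its means were 8.24 in *KCNQ* and 7.15 in WtPE hearts, against 9.30 in *sei* and 10.21 in WtCS hearts. *Obp57b*, which lies between them, overlapped between the lines, with means of 8.27 and 7.88, against 6.64 and 7.62. *Bbd*, next to *CG30154*, was bright in all groups and overlapped. On X *psh* and *Pgant7*, both higher, lay 4 places apart.

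**Figure D3:**
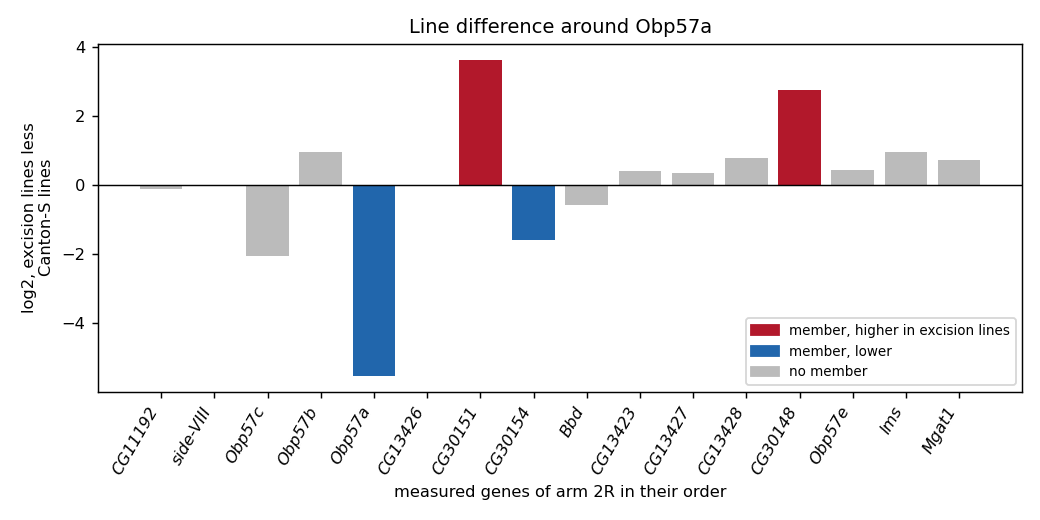
Line difference (log2, mean of the 6 excision-line arrays less mean of the 10 Canton-S-line arrays) of measured genes of arm 2R around *Obp57a*, in their order on the arm and not to scale in distance. Red bars are members higher and blue bars members lower in the excision lines, and grey bars are no members; *Obp57a* at -5.51 and *CG30151* at 3.62 are 2 places apart.

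Other probesets of the same genes were measured for 10 of the 76 genes. These values were not used by the rule, though they come from the same arrays. Of 20 further probesets that were no members 14 differed in the same direction as the member, 7 by over 0.5 and 4 by over 1. *CG33281* had -1.83 on its other probeset and *l(3)80Fg* 1.70, beside -3.19 and 1.62 on the member probesets. For *jim* the other probesets had 1.11 and 0.96 beside 3.06, and for *wb* 1.02 and 0.33 beside 3.32. *Mgstl* had 0.51 on a much brighter probeset beside 2.50. Further probesets of *ome* were dim in all groups with differences of 0.02 to 0.07, and the 8 of *Sarm* were between -0.80 and 0.34, beside -1.56 and -1.38 for the members. A probeset can read a single isoform or exon, so that a difference on 1 of several probesets is a difference of that probeset.

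Whether the members also differed between each mutant and its own control was asked with limma, fitted to all 18769 probesets. The rule did not use these contrasts and set no limit between a mutant and its own control. It does hold the excision lines and the Canton-S lines to opposite sides of a gap, which bears on the spread within each. The counts are therefore not those of an unselected list. In *sei* hearts 8 of the 85 rose (9.41%, background 6.47%) and 12 fell (14.1%, background 4.66%), with a median change of 0.03. The 12 became 6 without WtCS replicate 1 or *sei* replicate 3 and 7 without WtCS replicate 2 or *sei* replicate 1. Over all probesets the calls lower in *sei* hearts went from 874 to 580, 630, 656 and 540 in the same order. Of the 20, 8 moved toward the level of the excision lines and 12 away from it. In *KCNQ* hearts 0 rose (background 0.101%) and 1 fell (background 0.0693%), with a median change of 0.01. At an unadjusted p under 0.05, 4 rose and 2 fell. The share of all probesets at that looser threshold is not given here, so that these 2 counts have no background. The effects of the mutants differed for 6 members (7.06%, background 1.39%). All these backgrounds include dim probesets, so those for *sei* hearts and for this difference may be low for the members. When dim probesets (mean log2 under 5) were left out, 7167 remained, of which 789 rose and 775 fell in *sei* hearts. Of the members 37 higher and 36 lower ones remained, and 9 rose and 13 fell. The effects differed for 145 of the 7167 in the higher and 121 in the lower direction, and for 5 members. *KCNQ* and WtPE means were within 0.5 of each other for 38 of the 45 higher and 32 of the 40 lower members, and *sei* and WtCS means for 23 and 26. The share of all probesets within 0.5 is not given here. Over all probesets the median SD was 0.22 in *KCNQ* and 0.22 in WtPE hearts, against 0.40 in *sei* and 0.41 in WtCS hearts.

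The largest changes among members were in *fuss* and *wb*, and in both the *sei* level lay between WtCS and the excision lines. *fuss* had log2 intensities of 10.35, 10.29 and 10.47 in *KCNQ* hearts and 10.39, 10.33 and 10.59 in WtPE hearts, against 9.28, 9.40, 9.48, 8.93 and 9.13 in *sei* hearts and 5.67, 6.16, 5.41, 4.45 and 5.47 in WtCS hearts. The *sei* arrays were a separate group just below the excision lines, and WtCS was far below, so that *fuss* rose by 3.81 ± 0.24 in *sei* hearts (SE, adjusted p = 6.69e-08). In *KCNQ* hearts the change was -0.07 ± 0.31, and the effects differed by 3.88 ± 0.39 (adjusted p = 3.97e-05). *wb* had log2 intensities of 8.87, 8.50 and 9.07 in *KCNQ* hearts and 9.05, 8.67 and 9.02 in WtPE hearts, against 6.62, 7.22, 7.50, 7.85 and 7.66 in *sei* hearts and 4.46, 3.79, 3.65, 3.74 and 2.96 in WtCS hearts. The rise of *wb* was 3.65 ± 0.27 in *sei* hearts (adjusted p = 2.97e-07), with no overlap between *sei* and WtCS arrays, against a change of -0.10 ± 0.35 in *KCNQ* hearts, and the effects differed by 3.75 ± 0.44 (adjusted p = 0.000172). The other *wb* probesets had changes of 0.57 and 0.15 in *sei* hearts and did not pass (adjusted p = 0.573 and 0.677). *CG14715* had log2 intensities of 11.96, 12.02 and 12.22 in *KCNQ* hearts and 12.03, 12.10 and 12.10 in WtPE hearts, against 10.70, 10.77, 10.80, 11.28 and 11.30 in *sei* hearts and 9.55, 9.50, 8.36, 8.46 and 7.99 in WtCS hearts. Its *sei* arrays stood between those of the excision lines and of WtCS, with a rise of 2.19 ± 0.27 (adjusted p = 8.46e-05), and its effects differed by 2.20 ± 0.44 (adjusted p = 0.0164). This difference did not pass without WtPE replicate 2 (adjusted p = 0.0527) or without *KCNQ* replicate 1 (adjusted p = 0.0575). *CG10352* rose by 0.98 ± 0.23 (adjusted p = 0.0119), but not within run A (0.38, adjusted p = 0.408).

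**Figure D4:**
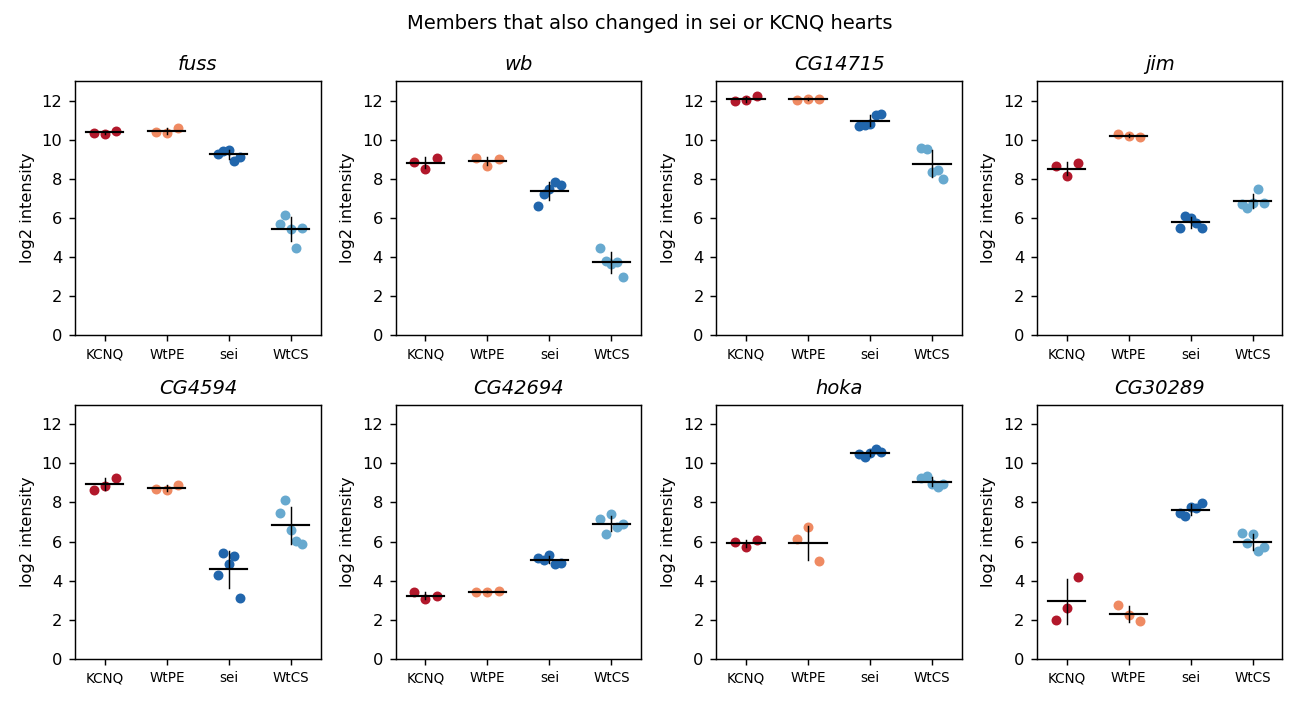
Log2 intensity (vertical axis, shared by all panels) of 8 members that limma called in *sei* or *KCNQ* hearts, in each array of *KCNQ*, WtPE, *sei* and WtCS hearts. Points are arrays, horizontal lines group means and vertical lines ± 1 SD (n = 3, 3, 5 and 5). In *fuss*, *wb* and *CG14715* the *sei* arrays stand between WtCS and the excision lines, while in *CG4594*, *hoka* and *CG30289* they are farther from the excision lines than WtCS.

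Of the lower members 4 moved toward the excision lines, that is, fell in *sei* hearts. *CG42694*, the serine protease homologue, fell to 5.07 ± 0.19 in *sei* hearts, against 6.92 ± 0.40 in WtCS hearts (SD, n = 5 each), a change of -1.85 ± 0.18 (adjusted p = 9.23e-06). Its change in *KCNQ* hearts was -0.21 ± 0.24, and the effects differed by -1.64 ± 0.30 (adjusted p = 0.0082). *CG9512* fell to 10.04 ± 0.25 in *sei* hearts, against 11.16 ± 0.19 in WtCS hearts, a change of -1.13 ± 0.15 (adjusted p = 0.000213). *CG6293* had a change of -0.86 ± 0.25 (adjusted p = 0.035), which did not pass in run A alone (-0.27, adjusted p = 0.688), with array run as a covariate (-0.45, adjusted p = 0.195), or without any 1 of WtCS replicates 1 and 2 and *sei* replicates 1, 2 and 3 (adjusted p from 0.0695 to 0.094). *Obp57a* differed in opposite directions in the mutants. It fell in *sei* hearts by 1.12 ± 0.31 (adjusted p = 0.031), while in *KCNQ* hearts its mean was 5.26 ± 1.00 in *KCNQ* hearts and 3.20 ± 0.37 in WtPE hearts (SD, n = 3 each), a difference of 2.06 ± 0.41 that did not pass (adjusted p = 0.0636). The effects differed by -3.19 ± 0.51 (adjusted p = 0.0032), and by -2.96 within run A (adjusted p = 0.0928). The fall in *sei* was not called with array run as a covariate (-0.76, adjusted p = 0.202) or without any 1 of *sei* replicates 1, 2 and 3 and WtCS replicates 1, 2 and 4 (adjusted p from 0.0615 to 0.0834). The difference in *KCNQ* hearts was called with the covariate (adjusted p = 0.0412), with probesets averaging under log2 5 left out (adjusted p = 0.0367) and without *KCNQ* replicate 1 (2.39, adjusted p = 0.0467).

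The other changes in *sei* hearts widened the distance to the excision lines. Among higher members *CG4594* fell to 4.58 ± 0.93 in *sei* hearts, against 6.82 ± 0.96 in WtCS hearts (SD, n = 5 each), a change of -2.24 ± 0.45 (adjusted p = 0.00455; -1.78 within run A, adjusted p = 0.117). *Adk3* fell to 4.41 ± 0.29 in *sei* hearts, against 5.44 ± 0.47 in WtCS hearts, a change of -1.03 ± 0.22 (adjusted p = 0.00642). *CG16898*, *squ*, *CG32638* and *CG17272* had changes of -1.43 ± 0.41, -1.06 ± 0.29, -0.99 ± 0.30 and -0.56 ± 0.16 (adjusted p = 0.0323, 0.0286, 0.0427 and 0.0361), and each of these calls rested on single arrays. *CG16898* did not pass without WtCS replicate 1, 2 or 5 or *sei* replicate 1 or 3 (adjusted p from 0.0633 to 0.0844), and *squ* not without WtCS replicate 1 or 5 or *sei* replicate 3 or 4 (0.0531 to 0.0722). *CG17272* did not pass without WtCS replicate 1, 2, 4 or 5, *sei* replicate 1, 2 or 3, WtPE replicate 2 or *KCNQ* replicate 1 or 3 (0.0501 to 0.106), and *CG32638* not when any array other than WtCS replicates 3, 4 and 5 was left out (0.0503 to 0.113). With array run as a covariate *CG16898* had -0.57 (adjusted p = 0.237) and *CG32638* -0.49 (adjusted p = 0.0525), and in run A alone *CG17272* had -0.24 (adjusted p = 0.469). Among lower members *hoka* rose to 10.54 ± 0.16 in *sei* hearts, against 9.05 ± 0.24 in WtCS hearts, a change of 1.48 ± 0.25 (adjusted p = 0.00123), and *CG30289* rose to 7.64 ± 0.27 in *sei* hearts, against 5.99 ± 0.40 in WtCS hearts, a change of 1.64 ± 0.33 (adjusted p = 0.00505). *Rdh1* rose by 0.82 ± 0.18 (adjusted p = 0.00725). The other called probesets, 1 that rose by 1.31 and 1 that fell by 2.79, have no single symbol, and the first was lost without WtCS replicate 1, 4 or 5, *sei* replicate 1, 2 or 3 or *KCNQ* replicate 3 (adjusted p from 0.05 to 0.102). Within run A, with 2 arrays a group, *hoka*, *CG30289* and *Rdh1* had changes of 1.80, 2.23 and 0.68 and did not pass (adjusted p = 0.0614, 0.0759 and 0.156).

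On its member probeset *jim* fell in both mutants, the only member to do so. Its log2 intensities were 8.65, 8.14 and 8.79 in *KCNQ* hearts and 10.29, 10.20 and 10.14 in WtPE hearts, against 5.48, 6.08, 6.00, 5.74 and 5.50 in *sei* hearts and 6.71, 6.51, 6.78, 7.49 and 6.77 in WtCS hearts. *KCNQ* and WtPE arrays did not overlap, nor did *sei* and WtCS arrays, and the 4 groups stood in the order WtPE, *KCNQ*, WtCS, *sei*. It fell in *KCNQ* hearts by 1.69 ± 0.26 (adjusted p = 0.00775) and in *sei* hearts by 1.09 ± 0.20 (adjusted p = 0.00269). The effects differed by 0.60 ± 0.33 (adjusted p = 0.58). On the other *jim* probesets, bright in all groups, *KCNQ* and WtPE means were close, 8.05 and 8.05 on one and 8.33 and 8.30 on the other (changes of 0.00 and 0.04, adjusted p = 1 for both), so that the call in *KCNQ* hearts is of 1 probeset of 3. In *sei* hearts these probesets had changes of -0.88 (adjusted p = 0.0588) and -0.96 (adjusted p = 0.0251). The call in *KCNQ* hearts was lost without WtPE replicate 1 (-1.65, adjusted p = 0.0562) and without *KCNQ* replicate 2 (-1.49, adjusted p = 0.0639). Other members with *KCNQ* means over 1 away from WtPE did not pass. *hll* averaged 6.76 ± 0.37 in *KCNQ* hearts and 5.29 ± 0.05 in WtPE hearts (SD, n = 3 each), a difference of 1.47 ± 0.48 (adjusted p = 0.952), and *CG12780* averaged 8.71 ± 0.94 in *KCNQ* hearts and 7.18 ± 0.85 in WtPE hearts, a difference of 1.54 ± 0.71 (adjusted p = 1).

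**Figure D5:**
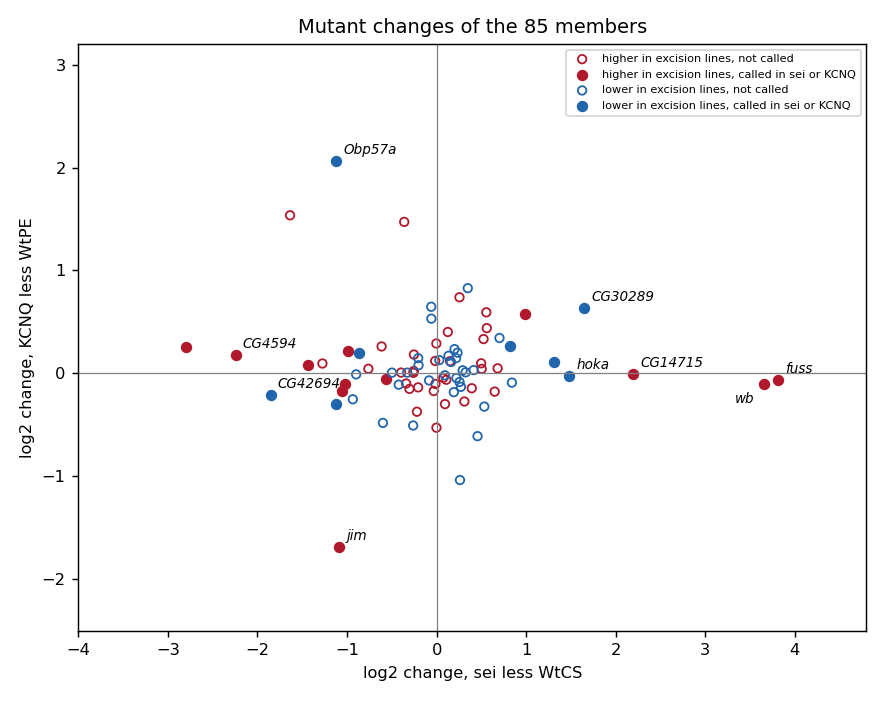
Change of each of the 85 members in *sei* hearts (horizontal axis, log2, *sei* less WtCS) against its change in *KCNQ* hearts (vertical axis, log2, *KCNQ* less WtPE), with no shared arrays between the axes. Filled points are members called by limma in either mutant and open points the others; *fuss* at 3.81 and *wb* at 3.65 lie farthest to the right, *jim* at -1.69 lowest and *Obp57a* at 2.06 highest.

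All excision-line arrays are in run A, so the line difference was also set against the differences between runs. Between the run A arrays and the other arrays of the Canton-S lines the higher members had a median shift of -0.70 in WtCS and -0.18 in *sei* hearts, and the lower members of -0.02 and -0.06. For 29 of the 45 higher and 15 of the 40 lower members the shift went away from the excision lines. Both counts use the mean of the WtCS and *sei* shifts, and for no member was that mean shift toward the excision lines over 0.5 times the line difference. The WtCS shift alone was over it for 0 members, and the *sei* shift alone for 5, which were *CG43110*, *rost* and *CG17272* among the higher and *CG10479* and *CG30154* among the lower members. Within run A, 6 arrays against 4, the median line difference was 2.59 for the higher and -2.03 for the lower members, against 2.26 and -2.07 with all arrays. The *sei* transcript itself was no member. It had mean log2 intensities of 5.39 in *KCNQ* and 5.73 in WtPE hearts, against 4.82 in *sei* and 5.77 in WtCS hearts, and it fell in *sei* hearts by 0.96 ± 0.25 (SE, limma, adjusted p = 0.0212). *KCNQ* and *w* were not analysed here.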

How the data were processed

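RNA of pooled hearts was read on 16 Affymetrix arrays. After quality control (affyQCReport), the authors ran RMA through AltAnalyze, with versions and genome build not given in the sources used here, and deposited 1 linear intensity per probeset and array. RMA forces the arrays to 1 distribution, so that values are relative to the other transcripts. Log2 was taken here before any step, since the tests had been planned for log2 values. Groups came from the sample titles, runs and codes from array names of the study's supplementary data. Of 18952 probesets 183 platform controls were left out. Gene symbols were taken from the annotation of the platform (13647 probesets with 1, 402 with several, 4720 with none), of which 13544 were matched to RefSeq of the Release 6 plus ISO1 MT assembly for names, arm and gene order; coordinates and sequences were not used here, and promoter motifs were not run.

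The members, gene lists and tests were chosen with earlier results of these data known. limma 3.58.1 in R 4.3.3 fitted 4 group means (12 residual and 3.68 prior degrees of freedom) with contrasts *sei* less WtCS, *KCNQ* less WtPE and their difference; p-values were adjusted by Benjamini-Hochberg over 18769 probesets and called under 0.05. Scripts were tested on simulated data. Alternatives were separate fits, Student's t-test (the methods name no test), a robust prior with trend, a further quantile normalization, 75th-percentile scaling, dim probesets (mean log2 under 5) left out, the array run as a term, the arrays of run A by themselves, a replicate block, averaged sample codes, each array left out and, for the rule, a gap of 1. Named are the 12 members with the largest gaps in each direction, up to 2 more per gene list, the 3 longest runs of neighbours, the 6 largest called changes per mutant, those nearest the threshold, and *sei*; the other members, and the protease and role groups, were named after their values were seen. Array number limits the precision.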

Additional observations from a re-analysis of the deposited data

Results flagged for a closer look

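In groups of 5 arrays 2 members had 1 array far from the others, of 68 groups examined, where chance flags about 1 in 20. *CG1773* had a log2 intensity of 7.67 in WtCS replicate 3, against 5.97 to 6.12 in the other WtCS arrays. *jim* had 7.49 in WtCS replicate 4, against 6.51 to 6.78.

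For 6 members the effects of the mutants, each against its own control, differed by limma's test of the difference. The *sei* effect less the *KCNQ* effect was 3.88 for *fuss* (3.81 and -0.07, adjusted p = 3.97e-05), 3.75 for *wb* (3.65 and -0.10, adjusted p = 0.000172) and 2.20 for *CG14715* (2.19 and -0.01, adjusted p = 0.0164). It was -3.19 for *Obp57a* (-1.12 and 2.06, adjusted p = 0.0032) and -1.64 for *CG42694* (-1.85 and -0.21, adjusted p = 0.0082). A probeset whose annotation gives several genes had -3.05 (-2.79 and 0.26, adjusted p = 0.0265), and its difference did not pass without *KCNQ* replicate 1 or 2 or any 1 of the WtPE replicates (adjusted p from 0.0621 to 0.0892).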

How the results depend on the processing

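With a gap of 1 in place of 0.5 the rule left 12 higher and 18 lower probesets. Within run A alone, where 6 arrays face 4, it gave 599 and 150. Leaving out 1 array gave 46 to 63 higher and 40 to 51 lower, and averaging arrays of the same sample code gave 76 and 62. Of the 85 probesets 75 also met the rule after repeated quantile normalization, which gave 84, and 73 after scaling to the 75th percentile, which gave 78. The count of members that fell in *sei* hearts was 12, and 7 with separate fits, 5 with Student's t-test and 5 within run A. Over all 18769 probesets the calls lower in *sei* hearts were 874, 531, 270 and 338 in the same order. With 1 array left out the count of members that fell was 6 to 12, and that of members that rose 7 to 12. Over all probesets 540 to 1097 were called lower and 781 to 1634 higher with 1 array left out. In *KCNQ* hearts 1 member rose with dim probesets (mean log2 under 5) left out and with array run as a covariate, in place of 0, and 0 fell by Student's t-test in place of 1. With 1 array left out 0 to 1 rose and 0 to 1 fell, and the effects differed for 4 to 7 members, in place of 6. The cause of these shifts was not tested, and neither was the effect of the smaller number of arrays within run A. Of 713 recomputed values of 28 named changes none turned its direction, 98 no longer passed and 3 newly passed, the last all for *Obp57a* in *KCNQ* hearts. Replicate numbers were not taken as pairs, since not every correlation of deviations between same-numbered arrays was over 0.1. They were 0.09, 0.03, 0.53, 0.21 and 0.23 for *sei* and WtCS replicates 1 to 5, of which 4 and 5 share run A, and -0.04 to 0.08 for *KCNQ* and WtPE. With the replicate block 10 members rose and 14 fell in *sei* hearts, 0 and 1 in *KCNQ* hearts, and 6 differed, and over all probesets calls in *sei* hearts came to 1555 higher and 1144 lower, in place of 1215 and 874. Intensities near the bottom of the scale, below the median log2 of 3.44, have no firm order.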
